A study of Mus musculus with 12 samples.

Results

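The genes described here are the 10 that carry the isoprenoid pathway away from sterols: Ggps1, Fnta, Fntb, Pggt1b, Rabggta, Rabggtb, Dhdds, Pdss1, Pdss2 and Coq2. They were chosen by symbol, with earlier results of these data known, and all 10 were found in each of 3 gene tables, among 16111 genes listed in all of them. Each table held 4 RNA libraries of 1 mouse cell type, so that 12 libraries were available in all, 1 per condition. The cell types were primary hepatocytes from male C57BL6/J mice aged 6 to 8 weeks, adipocytes differentiated in culture from subcutaneous preadipocytes of newborn C57BL6/J pups, and differentiated myotubes of C2C12, a single established mouse muscle line. The vehicle group received solvent (DMSO) for 36 h, and the olanzapine group received vehicle for 24 h and then olanzapine, an atypical antipsychotic, at 1 μM for 12 h. In the remaining groups the first 24 h were spent in calcifediol at 10 μM or calcitriol at 0.1 μM, and the same metabolite was then kept for 12 h together with olanzapine. Calcifediol and calcitriol are the circulating and the hormonally active metabolite of vitamin D. Their doses differed, so values for the metabolites are set side by side and are not compared. Every metabolite library also contained olanzapine.

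Isoprenoid units made by the mevalonate pathway are joined into farnesyl diphosphate, which is the last intermediate that sterol and nonsterol products share. Squalene synthase commits it to cholesterol, whereas the enzymes described here lengthen it or attach it to other molecules. Geranylgeranyl diphosphate synthase (Ggps1) adds another unit to it. Farnesyltransferase and geranylgeranyl transferase type I share an alpha subunit (Fnta) and differ in the beta subunit (Fntb and Pggt1b, respectively), and they attach these lipids to proteins such as Ras and the nuclear lamins. Rab geranylgeranyl transferase (Rabggta and Rabggtb) does so for Rab proteins, which direct vesicle traffic. Dhdds builds, with Nus1, the long chain of dolichol, the lipid carrier of protein glycosylation. Pdss1 and Pdss2 together make the tail of ubiquinone, the mitochondrial electron carrier, and Coq2 attaches that tail to its ring.

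The libraries held 15641436 to 19348348 counts each, and the lowest count of any of the 10 genes was 97 and the highest 1690. Of the 120 values of these genes, 1 was not a whole number (Rabggta in adipocytes with calcifediol). Strand use in counting is not given in the sources used here, so reads in a stretch that 2 genes share could belong to either. Fntb overlaps the noncoding RNA genes Gm46357 (8661 bases) and Gm46358 (14716 bases), Pdss2 overlaps Gm40631 (22313 bases), and Pdss1 overlaps Abi1 by 194 bases, where spans include introns. All 7 hepatocyte markers, all 7 adipocyte markers and all 7 myotube markers were detected in every library of their own cell type. In hepatocytes the summed level of the adipocyte markers was 52.8, 53.2, 69.9 and 71.5 CPM (counts scaled to a common library total) with vehicle, olanzapine, calcifediol and calcitriol, against 13710 to 15707 CPM in adipocytes. Fabp4 supplied most of that level in hepatocytes, with 925, 904, 1228 and 1162 counts in the same order. Adipoq, which only adipocytes express strongly, stood at 0, 0, 5 and 33 counts in those hepatocyte libraries, and Plin1 at 1, 1, 2 and 39. In C2C12 cells the summed level of 8 proliferation markers was 706 CPM with vehicle, 674 CPM with olanzapine, 197 CPM with calcifediol and 327 CPM with calcitriol. In bulk RNA, fewer cells of a type and less RNA per cell cannot be told apart.

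The sequence before the start of 2 genes is shown because Fntb was the only branch gene that passed the test of a vitamin D metabolite over all 12 libraries, and Rabggtb had the largest ratio between any 2 libraries compared. Both stretches come from RefSeq on build GRCm38.p6, are written 5′ to 3′ on the strand of the gene and end at the last base before its annotated span. That of Fntb lies on chromosome 12 at chr12:76837217-76837399 (plus strand, 183 bases) and that of Rabggtb at chr3:153912967-153913216 (minus strand, 250 bases). Capitals mark the GC box (GGGCGG on either strand).
Fntb: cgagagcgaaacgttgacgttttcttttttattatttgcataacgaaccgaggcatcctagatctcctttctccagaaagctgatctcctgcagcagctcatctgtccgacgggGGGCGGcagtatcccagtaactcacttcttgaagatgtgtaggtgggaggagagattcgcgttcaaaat
Rabggtb: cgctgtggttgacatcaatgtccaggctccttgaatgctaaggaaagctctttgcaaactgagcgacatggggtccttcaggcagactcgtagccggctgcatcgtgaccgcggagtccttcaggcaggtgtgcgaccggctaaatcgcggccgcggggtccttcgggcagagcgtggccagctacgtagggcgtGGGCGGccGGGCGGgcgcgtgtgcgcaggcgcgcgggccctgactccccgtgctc
Start sites were given for 8 of the 10 genes, in 11 windows of 250 bases. The GC box was present in 5 of the 11 windows and in 54.9% of 13952 windows of the same length before the genes tested. The core of the sterol regulatory element (CACCCCAC, either strand) was in 0 of the 11 windows and in 2.84% of all windows. The DR3 vitamin D response element was also in 0 of the 11 windows, and in 0.0215% of all.

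All 10 genes were expressed above 1 TPM (which corrects for transcript length) in every library. In hepatocytes the highest levels were those of Coq2 at 50.7 ± 1.74 TPM and Rabggtb at 47.3 ± 4.52 TPM (mean ± SD over the 4 libraries, whose treatments differ), with overlapping ranges. Ggps1 was the lowest there at 5.09 ± 0.30 TPM, next to Pggt1b at 5.83 ± 0.84 TPM, and the ranges of this pair overlapped too. In adipocytes Fnta stood clear of every other branch gene, at 102 ± 6.46 TPM. In C2C12 cells Fnta was also the highest, at 74.2 ± 8.30 TPM, but its lowest library (65.7 TPM) was close to the highest of Rabggtb (65.0 TPM). The lowest were Pggt1b in adipocytes (8.44 ± 1.08 TPM) and Pdss1 in C2C12 cells (6.42 ± 0.77 TPM), where Rabggtb was second at 59.2 ± 5.89 TPM. A gene's 4 libraries of 1 cell type lay close together, with a coefficient of variation of CPM of 1.57% to 10% in hepatocytes, 4.55% to 21.2% in adipocytes and 6.62% to 16% in C2C12 cells.

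Subunits of the same enzyme were not listed at equal levels. The TPM of Fnta exceeded the sum of its partners Fntb and Pggt1b in all 12 libraries, by a ratio of 1.84 to 2.23 in hepatocytes, 3.15 to 4.05 in adipocytes and 1.73 to 2.72 in C2C12 cells. Fntb was above Pggt1b in every library as well, with TPM ratios between 1.79 in a hepatocyte library and 3.43 in a C2C12 library. For the Rab enzyme it was the beta subunit that was higher, as Rabggtb exceeded Rabggta 1.51 to 2.03 times in hepatocytes, 1.98 to 2.94 times in adipocytes and 2.13 to 2.80 times in C2C12 cells. Pdss2 exceeded Pdss1 1.24 to 2.15 times over the 12 libraries. These are ratios of transcript levels and not of protein.

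**Figure D1:**
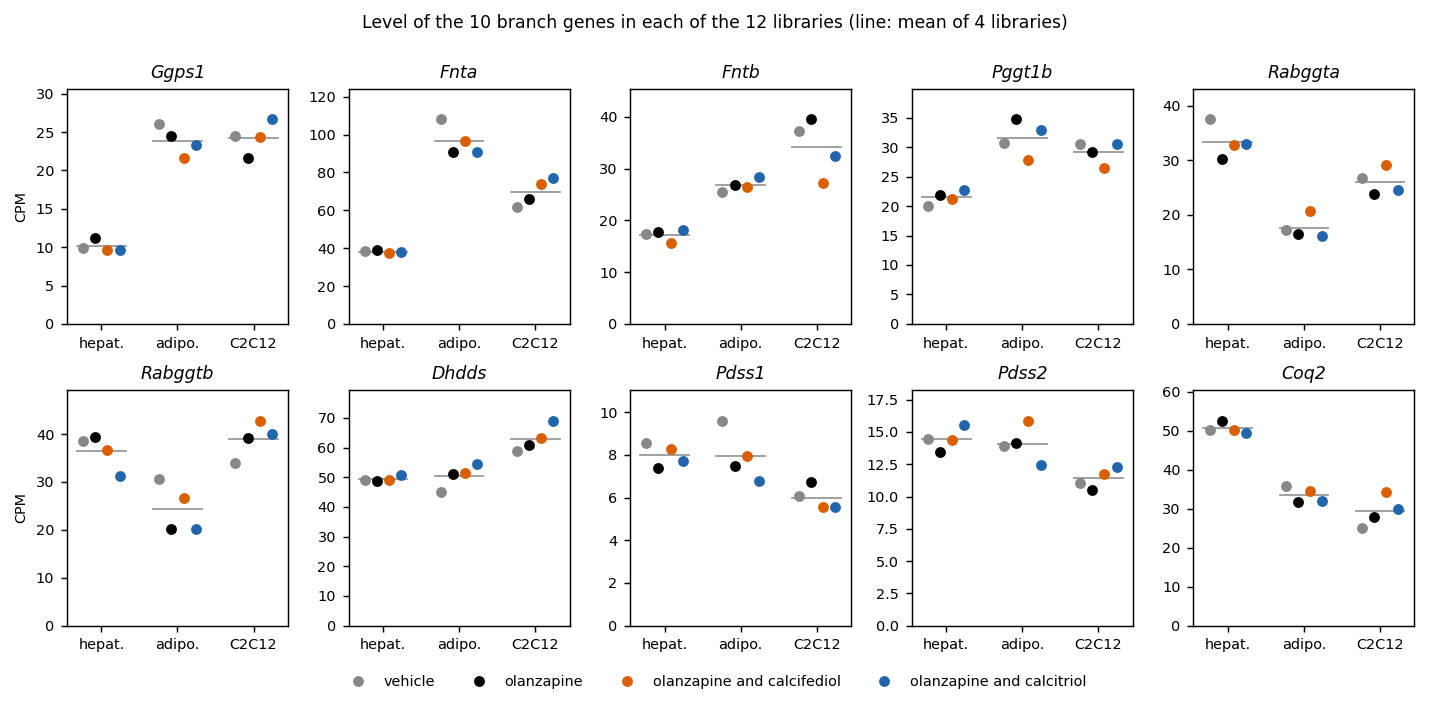
Each panel plots 1 branch gene, with the level in CPM on a linear axis from 0 and the 3 cell types along the x axis. Each point is 1 library coloured by treatment and the grey line is the mean of the 4 libraries. Ggps1 sits at 9.65 to 11.2 CPM in hepatocytes and above 21 CPM in all other libraries, while Coq2 runs the opposite way, and Fntb in C2C12 cells is lower in both libraries with a vitamin D metabolite.

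The largest differences among the branch genes were those between cell types. To ask which genes differ in level between cell types, cell type and treatment entered 1 additive fit over the 12 libraries (edgeR quasi-likelihood test, TMM scaling, 6 residual degrees of freedom, p adjusted over all genes tested). The error of this fit contains any treatment response that differs between cell types. By the paper, hepatocytes were treated in their maintenance medium, and adipocytes and C2C12 cells in Advanced DMEM/F12. Cell type and medium therefore cannot be told apart in the comparisons with hepatocytes. Of the 10 genes, 7 passed an adjusted p of 0.05 between C2C12 cells and hepatocytes, 8 between C2C12 cells and adipocytes, and 7 between adipocytes and hepatocytes. These shares are near the background, since 82.6%, 80% and 81.1% of all genes tested passed. The median absolute log2 difference of the 10 genes was 0.66, 0.40 and 0.62, below the 0.96, 0.86 and 0.87 of all genes tested. Scaling to library totals in place of TMM moved these log2 differences by a median of 0.13, 0.28 and −0.15, respectively. In the fits, library totals were those of the 16111 genes listed in all 3 tables. CPM used the totals of each whole table, so the fitted differences need not match CPM.

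Ggps1 (chromosome 13, 14049790 to 14063566) and the subunits of farnesyltransferase and geranylgeranyl transferase type I were higher in adipocytes than in hepatocytes. Ggps1, the branch point enzyme, had 9.90, 11.2, 9.65 and 9.66 CPM in hepatocytes with vehicle, olanzapine, calcifediol and calcitriol. In the same order it had 26.0, 24.4, 21.7 and 23.4 CPM in adipocytes, and 24.5, 21.6, 24.3 and 26.7 CPM in C2C12 cells. No hepatocyte library overlapped any library of the other cell types. With TMM scaling the log2 difference was 1.16 ± 0.10 (SE) for adipocytes against hepatocytes (2.23-fold, adjusted p = 1.02e-06 by edgeR). For C2C12 cells against hepatocytes it was 0.90 ± 0.10 (1.86-fold, adjusted p = 7.65e-06 by edgeR), while mean CPM was 24.3 against 10.1. Between C2C12 cells and adipocytes, Ggps1 differed by −0.26 ± 0.09 (adjusted p = 0.0248 by edgeR), but with library totals this value turned to 0.015 and its CPM ranges overlapped.

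Fnta (chromosome 8, 25998688 to 26015610), the subunit that 2 of the transferases share, had 38.4, 38.8, 37.4 and 38.1 CPM in hepatocytes with vehicle, olanzapine, calcifediol and calcitriol. The corresponding values were 108, 91.0, 96.7 and 90.6 CPM in adipocytes and 61.8, 66.1, 73.8 and 77.1 CPM in C2C12 cells. The cell types did not overlap, and all 3 log2 differences passed: 1.26 ± 0.08 for adipocytes against hepatocytes, 0.50 ± 0.08 for C2C12 cells against hepatocytes, and −0.76 ± 0.08 for C2C12 cells against adipocytes. Fntb (chromosome 12, 76837400 to 76921412), the farnesyltransferase beta subunit, ranged from 15.5 to 18.1 CPM in hepatocytes, below every library of adipocytes (25.4 to 28.4 CPM) and of C2C12 cells (27.3 to 39.5 CPM). It was higher by 0.57 ± 0.11 in adipocytes and by 0.62 ± 0.11 in C2C12 cells than in hepatocytes on the log2 scale, whereas between adipocytes and C2C12 cells the difference of 0.05 had a 95% interval of −0.18 to 0.29 and passed only with library totals (0.33, adjusted p = 0.01 by edgeR). Pggt1b (chromosome 18, 46235344 to 46281089), its counterpart in geranylgeranyl transferase I, was higher in adipocytes than in hepatocytes by 0.47 ± 0.08 (27.8 to 34.7 against 20.0 to 22.7 CPM), and its difference of 0.07 between C2C12 cells and hepatocytes (interval −0.11 to 0.25) did not pass.

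Both subunits of Rab geranylgeranyl transferase ran the other way and were lowest in adipocytes. Rabggta (chromosome 14, 55715864 to 55722263) had 37.5, 30.2, 32.8 and 33.0 CPM in hepatocytes, 17.3, 16.4, 20.6 and 16.1 CPM in adipocytes and 26.7, 23.8, 29.2 and 24.6 CPM in C2C12 cells, in the treatment order used above. Hepatocyte libraries were above all others, C2C12 libraries lay between, and the adipocyte libraries were the lowest, with no overlap. The log2 difference of adipocytes against hepatocytes was −1.01 ± 0.09 (2.01-fold lower, adjusted p = 1.22e-06 by edgeR). Rabggtb (chromosome 3, 153907289 to 153912966), whose introns contain small nucleolar RNA genes, was lower in adipocytes than in hepatocytes by −0.67 ± 0.13 on the log2 scale (adjusted p = 0.00063 by edgeR), with 20.1 to 30.6 CPM against 31.2 to 39.3 CPM. Its difference between C2C12 cells and hepatocytes, −0.27 with TMM scaling (interval −0.55 to 0.01), did not pass. In mean CPM, which uses the totals of whole tables, it was higher in C2C12 cells (38.9 against 36.5), so its direction differed between the fit and CPM.

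The ubiquinone genes were lowest in C2C12 cells, although with library totals the difference of Coq2 from adipocytes did not pass (−0.21, adjusted p = 0.06 by edgeR). Coq2 (chromosome 5, 100654723 to 100674288) had 50.2, 52.6, 50.2 and 49.6 CPM in hepatocytes, 35.9, 31.8, 34.6 and 31.97 CPM in adipocytes and 25.2, 27.9, 34.3 and 30.1 CPM in C2C12 cells. Hepatocytes stood apart from both other cell types, whose ranges overlapped. With TMM scaling Coq2 was 2.23-fold lower in C2C12 cells than in hepatocytes (log2 difference −1.16 ± 0.09, adjusted p = 3.23e-07 by edgeR). It was 1.60-fold lower in adipocytes (−0.68 ± 0.08, adjusted p = 2.59e-05 by edgeR). Mean CPM was 50.6, 33.6 and 29.4 in hepatocytes, adipocytes and C2C12 cells, so these folds do not follow from CPM. The tail synthase subunits Pdss1 (chromosome 2, 22894382 to 22940266) and Pdss2 (chromosome 10, 43218248 to 43464882) were lower in C2C12 cells than in hepatocytes by −0.78 ± 0.13 and −0.71 ± 0.10 on the log2 scale. Pdss1 spanned 5.56 to 6.72 CPM in C2C12 cells, 7.37 to 8.57 CPM in hepatocytes and 6.78 to 9.59 CPM in adipocytes. Their differences between adipocytes and hepatocytes were −0.09 (interval −0.38 to 0.19) and −0.12 (interval −0.34 to 0.10) and did not pass.

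Dhdds (chromosome 4, 133969028 to 134000957), the dolichol chain enzyme, passed in none of the 3 comparisons of cell types with TMM scaling and in 2 of them with library totals. It had 48.8 to 50.8 CPM in hepatocytes, 45.1 to 54.5 CPM in adipocytes and 58.9 to 69.0 CPM in C2C12 cells. With TMM scaling its log2 differences were −0.02 (interval −0.17 to 0.12) for C2C12 cells against hepatocytes, 0.03 (−0.12 to 0.18) for C2C12 cells against adipocytes and −0.05 (−0.20 to 0.09) for adipocytes against hepatocytes, and none passed. With library totals it was higher in C2C12 cells than in adipocytes (0.31, adjusted p = 0.00114 by edgeR) and lower in adipocytes than in hepatocytes (−0.20, adjusted p = 0.014 by edgeR).

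**Figure D2:**
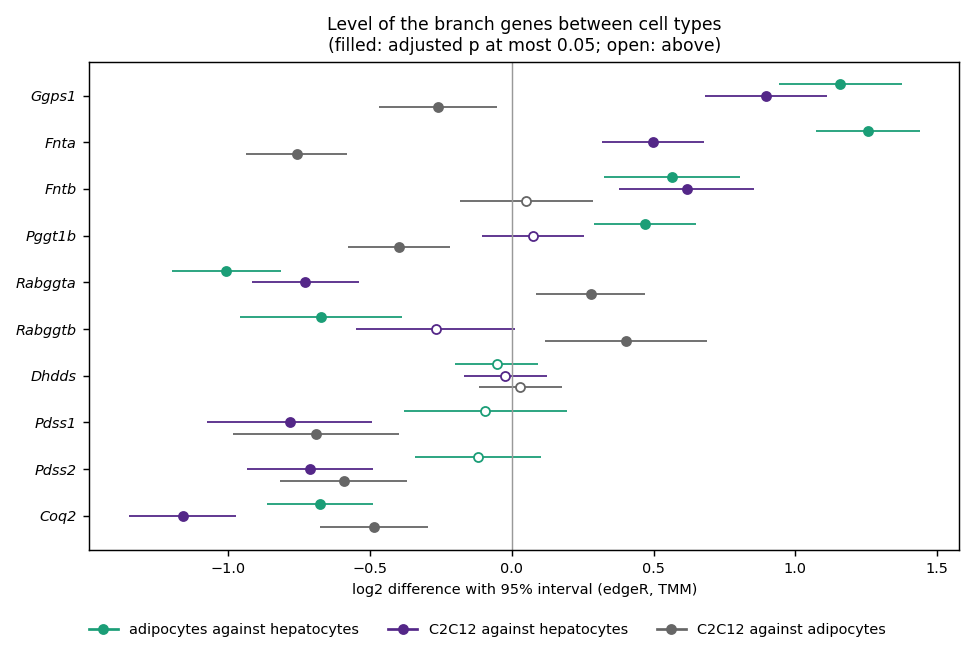
The log2 difference in level between cell types (x axis) is shown for each branch gene (y axis) with its 95% interval from edgeR with TMM scaling, filled where the adjusted p was at most 0.05. Ggps1 and Fnta lie above 0 against hepatocytes in both other cell types, Rabggta and Coq2 lie below 0, and the intervals of Dhdds include 0 in all 3 comparisons.

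To ask whether vitamin D metabolites change the branch, libraries with a metabolite were set against those without in each cell type. Each side held 2 libraries (vehicle and olanzapine; calcifediol and calcitriol), which are not replicates of a condition, so that the error contains any olanzapine effect and any difference between metabolites or doses. In C2C12 cells 1 of the 10 genes passed an adjusted p of 0.05, against 26% of all genes tested, and it was lower. Fntb had 37.3 and 39.5 CPM with vehicle and olanzapine, and 27.3 and 32.3 CPM with calcifediol and calcitriol. Both metabolite libraries lay below both others. The log2 difference was −0.39 ± 0.11 (interval −0.63 to −0.15, 1.31-fold lower, adjusted p = 0.0197 by edgeR). The call was lost when the C2C12 vehicle, olanzapine or calcifediol library was left out (log2 difference −0.43, −0.35 and −0.27, with adjusted p = 0.0633, 0.135 and 0.164 by edgeR), and when the 4 C2C12 libraries were fitted alone (adjusted p = 0.0686 by edgeR). The proliferation markers moved with it, as 8 of 8 were lower with the metabolites by a median of −1.39 on the log2 scale. Of 7 myotube markers 1 was lower, Myog, an early regulator of muscle differentiation, with 13751 and 14553 counts without and 9184 and 9148 with a metabolite, while their summed level was 17429 and 17486 against 18360 and 18631 CPM. The summed level of 5 fibroblast markers was 3638 and 3921 CPM without and 5225 and 5791 CPM with a metabolite. Col1a1 supplied most of that sum (63245 of 66943 counts with vehicle), and Thy1 had 0 counts in every C2C12 library. Of the 4 fibroblast markers tested 1 passed, and their log2 differences ran from 0.13 to 0.52. The part of these markers in the result was not tested.

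The other 9 genes did not pass in C2C12 cells. Coq2 had 25.2 and 27.9 CPM without and 34.3 and 30.1 CPM with a metabolite, a log2 difference of 0.26 ± 0.10 (interval 0.03 to 0.48, adjusted p = 0.0864 by edgeR). It passed once the calcitriol library was left out (0.34, adjusted p = 0.0372 by edgeR). Fnta had 61.8 and 66.1 CPM without and 73.8 and 77.1 CPM with a metabolite, a log2 difference of 0.22 ± 0.09 (interval 0.02 to 0.41, adjusted p = 0.101 by edgeR). So the shared alpha subunit and the farnesyltransferase beta subunit had differences of opposite sign, of which only that of Fntb passed, and the TPM ratio of Fnta to the sum of Fntb and Pggt1b ran from 1.73 to 2.72 in C2C12 cells. For the remaining 7 genes the log2 differences lay between −0.23 (Pdss1) and 0.16 (Rabggtb), and the widest interval reached 0.62 in size. In 7 of the 10 genes the metabolite libraries did not overlap the others, 5 of them higher and 2 lower, as was the case for 64.8% of all genes tested in C2C12 cells. The median absolute log2 difference of the 10 genes was 0.14, and that of all genes tested 0.22.

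In adipocytes 0 of the 10 genes passed (0.181% of all genes tested did), and in hepatocytes 0 passed as well (0% of all, with 331 of 10696 genes at an unadjusted p under 0.05 by edgeR, none of them a branch gene). In adipocytes the log2 differences ran from −0.16 (Pdss1) to 0.19 (Dhdds), in hepatocytes from −0.19 (Rabggtb) to 0.11 (Pdss2), and no interval reached beyond 0.55 in either. The metabolite libraries did not overlap the others for 2 of the 10 genes in adipocytes, against 39% of all genes tested, and for 4 in hepatocytes, against 32.2%. Fntb differed by 0.12 ± 0.12 in adipocytes and by −0.05 ± 0.12 in hepatocytes. Its metabolite effect in C2C12 cells was lower than that in adipocytes by −0.50 ± 0.16 (adjusted p = 0.0669 by edgeR) and than that in hepatocytes by −0.34 ± 0.17 (adjusted p = 0.249 by edgeR), so a difference between the cell types was not shown. Without the C2C12 calcitriol library the former became −0.64 with adjusted p = 0.0151. In these tests of the difference 0 of the 10 genes passed, against 10.1% and 8.41% of all genes.

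**Figure D3:**
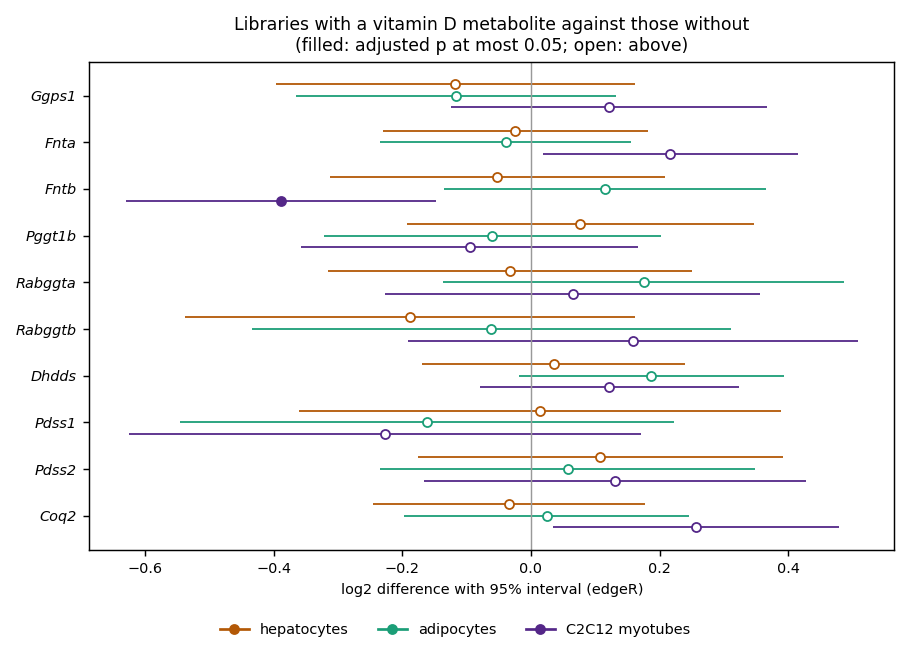
For each branch gene (y axis) the log2 difference between the 2 libraries with a vitamin D metabolite and the 2 without (x axis) is shown per cell type, with its 95% interval from edgeR, filled where the adjusted p was at most 0.05. Fntb in C2C12 cells, at −0.39, is the only filled point, and every other adjusted p was above 0.05.

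Neighbouring genes of the pathway in C2C12 cells were described from lists written with earlier results known. Of 8 genes that supply the branch or lead to squalene, 6 passed with a metabolite and all 6 were lower, with a list median of −0.59 on the log2 scale, while 26% of all genes tested passed (1532 higher and 1604 lower) with a median of 0.01. Idi1, which isomerises the isoprenoid unit, had 81.0 and 71.4 CPM without, and 24.4 and 53.0 CPM with calcifediol and calcitriol (log2 difference −0.997 ± 0.26, adjusted p = 0.0109 by edgeR). Fdps, which makes farnesyl diphosphate, had 267 and 270 CPM without, and 104 and 211 CPM with the metabolites (−0.79 ± 0.21), and Acat2, which condenses acetyl-CoA at the start of the pathway, differed by −0.90 ± 0.17. The calcifediol library was the lowest for all 3 of these genes. In adipocytes and hepatocytes 0 of the 8 genes passed, and the tests of the difference between cell types passed for 1 of the 8 against each, near the 10.1% (adipocytes) and 8.41% (hepatocytes) of all genes. In single pairs of C2C12 libraries (fold of at least 2, FDR of at most 0.05), 5 of the 8 were called lower for calcifediol against olanzapine and 0 for calcitriol. The list medians were −1.13 and −0.27, and 11.6% and 8.36% of all genes were called.

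Downstream of Pdss1, Pdss2 and Coq2, 4 of 10 genes of ubiquinone ring modification and handling rose with a metabolite in C2C12 cells and 0 fell (26% of all genes passed in either direction), with a list median of 0.27. Coq10a, a ubiquinone-binding protein, had 30.3 and 37.3 CPM without and 85.4 and 55.0 CPM with calcifediol and calcitriol (log2 difference 1.03 ± 0.18, adjusted p = 0.000562 by edgeR). Coq8a, an atypical kinase of the ubiquinone complex, had 69.2 and 66.7 CPM without and 122 and 120 CPM with the metabolites (0.81 ± 0.11), and Coq9, a lipid-binding member of it, differed by 0.39 ± 0.09. The metabolite effect was higher in C2C12 cells than in adipocytes for 1 of the 10 genes and than in hepatocytes for 3, where 10.1% and 8.41% of all genes passed in either direction.

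Among 11 genes of dolichol synthesis and use, 1 rose, Dpm1, the catalytic subunit that makes dolichol phosphate mannose (0.41 ± 0.13, 19.9 and 21.8 against 30.3 and 26.2 CPM), and 0 fell, below the 26% of all genes that passed. Of 10 genes for prenylated proteins 3 fell and 0 rose, a share near the 26% of all genes. They were Lmnb1 (−1.11 ± 0.18, 46.1 and 41.9 against 16.6 and 24.9 CPM) and Lmnb2 (−0.60 ± 0.11), the farnesylated B-type lamins, and Rhob (−0.37 ± 0.09), a small GTPase. All 8 proliferation markers fell in the same comparison, and their part in these values was not tested. The 4 genes that trim and methylate prenylated proteins, the 3 partners of Rab geranylgeranylation and the 3 other users of prenyl groups had 0 genes past the threshold in C2C12 cells.

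Comparing single pairs of libraries, as the study's own rule does, none of the branch genes was called. The Audic-Claverie test of the reads of 2 libraries was used with a fold of at least 2 and an FDR of at most 0.05, and it compares libraries and not conditions. In the 9 comparisons 0 of 90 values of the 10 genes were called. For olanzapine against vehicle the background was 0.356% of genes called for hepatocytes, 1.22% for adipocytes and 0.313% for C2C12 cells. For calcifediol against olanzapine it was 0.566%, 1.52% and 11.6%, and for calcitriol against olanzapine 0.702%, 0.974% and 8.36%, respectively. The same olanzapine library is the control of both metabolites. The log2 ratios of the 10 genes ran from −0.61 to 0.41, and 1 of 90 reached 1.5-fold. The exact 95% counting interval (Clopper-Pearson, counting error only) left out 0 in 19 of the 90 values.

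With olanzapine against vehicle, the counting interval left out 0 for 5 of the 10 genes in adipocytes, against 36.6% of all genes, for 1 in hepatocytes (29.6%) and for 1 in C2C12 cells (22.9%). Rabggtb in adipocytes had the largest ratio of all, with 479 counts and 30.6 CPM with vehicle and 340 counts and 20.1 CPM with olanzapine (log2 ratio −0.61, interval −0.81 to −0.41). It stood at 26.6 CPM with calcifediol and 20.2 CPM with calcitriol, so that the vehicle library was the highest of the 4. Fnta in adipocytes had 1690 and 1541 counts (−0.25, interval −0.35 to −0.15), Pdss1 had 150 and 127 (−0.35, −0.71 to −0.004), Dhdds 706 and 864 (0.18, 0.03 to 0.32) and Pggt1b 480 and 588 (0.18, 0.002 to 0.36). In hepatocytes the gene was Rabggta, with 705 and 554 counts (−0.31, −0.47 to −0.15), and in C2C12 cells Rabggtb, with 624 and 698 counts (0.20, 0.05 to 0.36). Rabggtb thus lay on opposite sides of 0 in adipocytes and C2C12 cells, a difference with no replicate check. Scaled to Rplp0, the reference gene of the study's PCR, the ratio of Fnta in adipocytes changed to 0.13 and that of Pdss1 to 0.02, while the median of all genes moved to 0.35.

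Across the cell types no olanzapine effect was shown for any branch gene. In the additive fit 0 of the 10 genes passed, as did 0% of all 13323 genes, of which 75 had an unadjusted p under 0.05 by edgeR and none was a branch gene. The error of this fit contains any treatment response that differs between cell types, including that to the metabolites. Only 0.563% of all genes had an unadjusted p under 0.05 by edgeR, so 0 passing genes say little about an olanzapine effect. The log2 differences ran from −0.18 (Rabggta, interval −0.40 to 0.04) to 0.09 (Pggt1b, interval −0.12 to 0.30), and the intervals of all 10 genes stayed within 1.38-fold.

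With calcifediol against olanzapine, the interval left out 0 for 4 genes in C2C12 cells (61.6% of all genes), 3 in adipocytes (42.7%) and 0 in hepatocytes (34.6%). In C2C12 cells Fntb had 706 counts with olanzapine and 476 with calcifediol (−0.53, interval −0.70 to −0.36), the largest change of a branch gene there. Coq2 had 498 and 599 counts (0.30, 0.13 to 0.48), Rabggta 425 and 509 (0.29, 0.11 to 0.48) and Fnta 1180 and 1288 (0.16, 0.05 to 0.28). In adipocytes Rabggtb had 340 and 459 counts (0.41, 0.20 to 0.61), Rabggta 278 and 355 (0.33, 0.10 to 0.56) and Pggt1b 588 and 479 (−0.32, −0.50 to −0.14). Scaled to Rplp0, the median of all genes in this adipocyte comparison moved to −0.38, and the ratio of Rabggta changed sign. Against vehicle in place of olanzapine, Rabggtb in adipocytes was lower with calcifediol (−0.20), which reverses the sign.

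With calcitriol against olanzapine, the interval left out 0 for 4 genes in C2C12 cells (55.7% of all genes), 0 in adipocytes (27.6%) and 1 in hepatocytes (28.7%). In C2C12 cells Fntb had 582 counts against 706 (−0.29, interval −0.45 to −0.13), Ggps1 480 against 386 (0.30, 0.11 to 0.50), Fnta 1388 against 1180 (0.22, 0.11 to 0.34) and Dhdds 1241 against 1086 (0.18, 0.06 to 0.30). The olanzapine library was the lowest of the 4 for Ggps1, and the vehicle library, at 24.5 CPM, lay between it and the calcitriol library at 26.7 CPM. In hepatocytes the gene was Rabggtb, with 604 counts against 720 (−0.33, −0.49 to −0.17), in the library that also held the most counts of Adipoq, whose part in this value was not tested. Fntb and Fnta had the same signs with calcitriol as with calcifediol in C2C12 cells, although both ratios rest on the 1 olanzapine library.

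**Figure D4:**
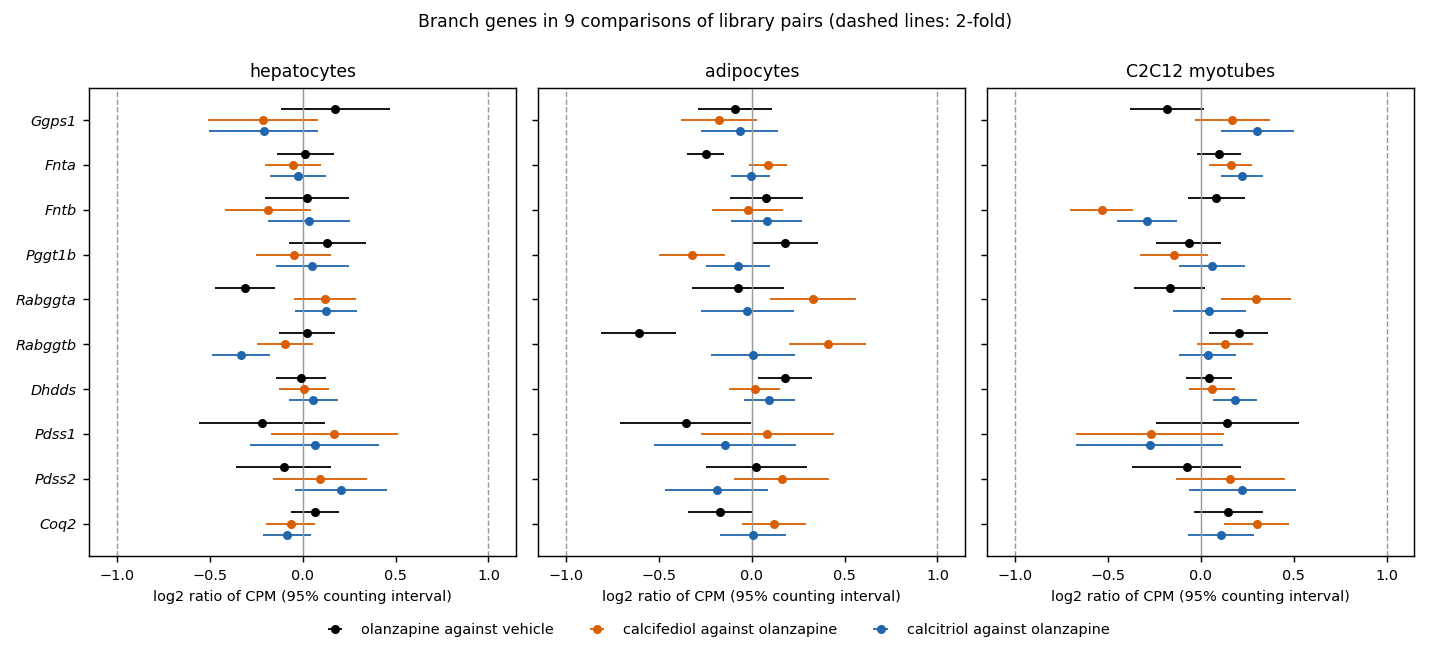
Each panel is 1 cell type and shows the log2 ratio of CPM (x axis) of the 10 branch genes (y axis) in 3 comparisons of library pairs, with exact 95% counting intervals. All 90 points lie inside the dashed lines at 2-fold. Rabggtb in adipocytes with olanzapine (−0.61) and Fntb in C2C12 cells with calcifediol (−0.53) lie farthest from 0.

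The genes whose pattern was most like that of Ggps1 over the 12 libraries were Syt11, Taf9b and Zfp740, each with a Pearson r of 0.99 in log2 CPM among 9605 genes. The 12 libraries fall into 3 cell types, so these values mainly describe low levels in hepatocytes. After each cell type was centred on its own mean, r was 0.79, 0.64 and 0.62. Among the branch genes r with Ggps1 was 0.92 for Fnta, 0.92 for Pggt1b and 0.87 for Fntb, and −0.91 for Coq2 and −0.75 for Rabggta. Within cell types it was 0.50 for Fnta and between −0.33 and 0.32 for the rest.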

How the data were processed

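Poly(A) RNA of 12 mouse cell cultures was sequenced on DNBseq. After filtering with SOAPnuke, the authors aligned the reads to GRCm38.p6 (HISAT, Bowtie2), and RSEM gave the gene values. The authors deposited expected counts with no scaling between libraries, and the deposited FPKM are scaled to gene length and mapped reads. A further 12 columns of TPM were not used, and TPM was recomputed from FPKM. Expected counts were rounded. CPM used the total of each whole table, and ratios used a pseudocount of 0.5.

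Tests were limited to genes that reached 1 TPM in 1 or more libraries of the cell types compared. Pairs of libraries were compared with the two-sided Audic-Claverie test, the 12 libraries with edgeR 4.0.16 (quasi-likelihood, TMM, genes listed in all 3 tables), each with Benjamini-Hochberg adjustment over all genes tested. Intervals of edgeR differences used its moderated degrees of freedom. The procedures were tested on simulated data. DESeq2 1.42.0, R 4.3.3, Python 3.11.15, scipy 1.17.1, numpy 2.4.6 and pandas 2.3.3 were also used. Each condition has 1 library, so p-values of edgeR measure only the spread between these libraries, and those of the Audic-Claverie test only counting error. Depth was 15641436 to 19348348 counts, and a count of 0 would allow up to 3 counts (0.155 to 0.192 CPM).

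The branch genes, gene lists, markers and tests were chosen with earlier results of these data known. All 10 branch genes are named. Of each other list, the up to 3 genes with the largest absolute difference among those past the threshold in C2C12 cells are named, and for Ggps1 the 3 genes with the highest Pearson r. The alternatives were other scalings (library totals, TMM, median of ratios, TPM, Rplp0), DESeq2, filters, a pseudocount of 5, a fold of 1.5, vehicle as reference, each cell type alone and leaving out each library.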

Additional observations from a re-analysis of the deposited data

How the results depend on the processing

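The share of all genes called or passing was not computed under the alternative settings, so the counts of branch genes below have no background beside them. With a fold of 1.5, 1 branch gene was called for olanzapine against vehicle in adipocytes (Rabggtb) in place of 0, and the counts of the other 8 comparisons of library pairs stayed at 0 under that setting. Leaving out 1 library at a time gave 0 to 2 branch genes with a metabolite effect in C2C12 cells, against 1, and 0 to 1 with an effect that differed between C2C12 cells and adipocytes, against 0. Where a side was left with 1 library, that library was assumed to vary like the others. The C2C12 libraries fitted alone gave 0, and library totals, median of ratios, DESeq2 and no filter each gave 1 (Fntb). For the cell types, leaving out a library gave 7 to 8, 6 to 8 and 7 genes in the order of the report, and library totals gave 8, 7 and 9. With library totals the Ggps1 difference between C2C12 cells and adipocytes reversed from −0.26 to 0.015 (adjusted p = 0.895 by edgeR), and those of Pggt1b (−0.12) and Coq2 (−0.21) no longer passed. In the same setting Fntb (0.33) and Dhdds (0.31) passed there, and Pggt1b (0.20) passed between C2C12 cells and hepatocytes. Dhdds (−0.20) and Pdss2 (−0.27) passed between adipocytes and hepatocytes. Mean CPM of Dhdds was nevertheless slightly higher in adipocytes than in hepatocytes (50.5 against 49.5). Between C2C12 cells and adipocytes, the Ggps1 call was lost without the adipocyte vehicle (−0.23), olanzapine (−0.25) or calcitriol (−0.27) library or the C2C12 vehicle (−0.26) or olanzapine (−0.18) library. That of Rabggtb was lost without the adipocyte olanzapine (0.30) or calcitriol (0.36) library or the C2C12 calcitriol library (0.32), and that of Rabggta with DESeq2 (0.22). Rabggtb passed between C2C12 cells and hepatocytes with median of ratios (−0.30) and without the adipocyte vehicle (−0.27) or C2C12 calcitriol (−0.36) library. Its mean CPM was nevertheless higher in C2C12 cells (38.9 against 36.5).

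Scaling to Rplp0 moved the median of all genes by over 0.1 in 4 of the 9 comparisons of library pairs, to 0.35, −0.38 and −0.22 in adipocytes and to 0.19 for calcitriol in C2C12 cells. It changed the sign of 19 of the 90 ratios of branch genes, 3 of them among those whose counting interval left out 0. TMM changed 1 sign, median of ratios 2 and TPM 7, of which 0 had such an interval. The cause of these changes was not tested. No paired analysis was possible because each condition has 1 library and the labels give no replicate numbers.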
